A study of Mus musculus with 6 samples.

Results

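Thyroid hormone receptors, the enzymes and carrier that set how much active hormone reaches them, and 2 of their target genes were followed in hearts of mice with ectopic DNA methyltransferases. The group holds 8 of the 18193 genes measured, Thra, Thrb, Rxrg, Dio1, Dio2, Slc16a10, Klf9 and Thrsp, chosen by name. All probe sets that the platform annotation gives to only 1 of these symbols were taken, which were 23 of the 45101 probe sets on the array. Heart tissue of 8-week-old mice was profiled on Affymetrix arrays with 1 array per mouse, 3 DNMTs-Tg mice (replicates 1, 5 and 6) and 3 wild-type mice (replicates 1, 4 and 6). DNMTs-Tg mice express both DNMT3A2, a short form of a de novo DNA methyltransferase, and its cofactor DNMT3L in a broad range of somatic cells. They came from a cross of a flox male with a Ddx4-cre female of the FVB background (FVB-Tg(Ddx4-cre)1Dcas/J), Ddx4 being a germ cell gene. They grew slowly after birth and died early. The labels do not say whether the wild-type mice carried the Cre or the unrecombined flox allele, or which promoter drives the transgenes. The study looked in the heart for genes that the added enzymes might methylate and silence. DNA methylation was not analysed here.

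Thyroid hormone enters cells through membrane carriers, one of which is the monocarboxylate transporter MCT10, encoded by Slc16a10. Deiodinases then convert the prohormone T4 into active T3 (Dio1 and Dio2), and T3 binds nuclear receptors (Thra and Thrb) that sit on DNA together with a retinoid X receptor such as RXR gamma (Rxrg). In the rodent heart the hormone is known to keep the fast alpha-myosin gene Myh6 on and the slow beta-myosin gene Myh7 off. Klf9, a zinc finger transcription factor, and Thrsp, a regulator of fat synthesis, are 2 of the best known genes that the receptors induce.

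The transgene Dnmt3l stood at log2 signals of 12.19 to 12.38 in DNMTs-Tg and 5.17 to 5.48 in wild-type hearts. Of the 5 Dnmt3a probe sets 1 was higher by 1.02 (limma, adjusted p = 0.0563), and the others differed by -0.28 to -0.09. The labels call 5 mice female and wild-type replicate 6 male, but the Y-linked gene Eif2s3y lay at 9.41 to 9.52 on 5 arrays and at 3.32 on that of wild-type replicate 4, the 1 array with Xist above 10 (10.10). The fit without wild-type replicate 4 therefore compares arrays that all carry Y-linked RNA. DNMTs-Tg replicate 1 stood apart from the others, at -72.9 on a first principal component that held 62.1% of the variance, against -26.8 and -4.34 for replicates 5 and 6 and 32.3 to 37.8 for wild-type. Fibroblast markers averaged 1.36 above the wild-type mean on that array (0.21 and 0.30 on the other DNMTs-Tg arrays) and macrophage markers 1.52 (0.07 and 0.12). The mean of the cardiomyocyte markers lay at -0.08 to 0.10 in DNMTs-Tg and -0.18 to 0.10 in wild-type hearts. That list includes the widely varying Nppa (10.21 to 13.01 in DNMTs-Tg, 9.28 to 12.08 in wild-type). By their brightest probe sets, Ryr2 (11.74, wild-type 12.54 to 12.68), Tnni3 (13.77, 14.26 to 14.32) and Myh6 (14.13, 14.56 to 14.62) lay lower on the array of DNMTs-Tg replicate 1. Actc1, Myl2, Myl3 and Pln lay below wild-type there too, and Mybpc3 and Tnnt2 above it. Across the array, 952 of 45037 tested probe sets changed, 360 up and 592 down.

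Because the study concerns promoter methylation, promoters of members are shown first. They are for a transporter gene, of which 1 of 4 probe sets changed, and 3 other genes that differ in CpG content. Each is the 300-base RefSeq window from 250 bases before to 50 bases after a transcription start (GRCm38.p6), written 5′ to 3′ on the strand of the gene with CpG dinucleotides, the sites of DNA methylation, in capitals. They lie at chr10:40142205-40142504 on the minus strand for Slc16a10, chr19:23140976-23141275 on the plus strand for Klf9, chr1:167598112-167598411 on the plus strand for Rxrg, and chr12:90738989-90739288 on the minus strand for Dio2.
Slc16a10: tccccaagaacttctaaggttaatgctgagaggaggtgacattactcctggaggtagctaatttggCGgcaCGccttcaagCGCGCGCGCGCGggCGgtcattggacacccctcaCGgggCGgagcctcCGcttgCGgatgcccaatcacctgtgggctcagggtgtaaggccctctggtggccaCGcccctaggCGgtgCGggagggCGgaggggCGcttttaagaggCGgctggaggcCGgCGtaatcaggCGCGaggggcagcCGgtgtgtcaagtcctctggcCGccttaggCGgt
Klf9: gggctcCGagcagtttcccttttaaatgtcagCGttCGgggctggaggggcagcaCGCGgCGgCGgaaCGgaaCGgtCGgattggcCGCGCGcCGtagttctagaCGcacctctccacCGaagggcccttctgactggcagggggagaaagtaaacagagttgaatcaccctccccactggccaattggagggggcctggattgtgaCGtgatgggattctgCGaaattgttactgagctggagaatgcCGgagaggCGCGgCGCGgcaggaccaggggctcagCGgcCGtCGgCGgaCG
Rxrg: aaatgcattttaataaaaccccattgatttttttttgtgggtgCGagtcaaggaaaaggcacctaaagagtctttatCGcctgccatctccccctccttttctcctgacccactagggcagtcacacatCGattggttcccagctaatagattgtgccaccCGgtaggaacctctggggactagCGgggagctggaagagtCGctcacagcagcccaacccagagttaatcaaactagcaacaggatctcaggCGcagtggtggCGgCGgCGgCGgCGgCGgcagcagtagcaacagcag
Dio2: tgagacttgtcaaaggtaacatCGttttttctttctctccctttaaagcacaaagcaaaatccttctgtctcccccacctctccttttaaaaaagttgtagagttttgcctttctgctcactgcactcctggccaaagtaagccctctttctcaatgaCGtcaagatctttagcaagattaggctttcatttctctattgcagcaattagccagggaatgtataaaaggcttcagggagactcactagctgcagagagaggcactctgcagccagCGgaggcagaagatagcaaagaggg

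In the table of promoter windows 7 of the 8 members had 9 windows, and Thra had none. Slc16a10 holds 26 CpGs (84th percentile among 32851 windows) and Klf9 28 (86th percentile), against a median of 7 and an upper quartile of 20 over all windows. The densest was the first of the windows of Thrb, with 37 CpGs, while the second, for a start further downstream, held 4. The Rxrg windows held 13 and 9. The promoters of Dio1, Dio2 and Thrsp were poor in CpG, with 3, 3 and 4. The group thus mixes CpG-rich and CpG-poor promoters. The half-site AGGTCA, the core that thyroid hormone and retinoid receptors recognise, was searched on both strands. It occurred in 2 of the 9 windows, at position -184 in the CpG-rich window of Thrb and at position -88 in the second window of Rxrg (counted from the start to the leftmost base of the match), against 16.3% of all windows. The letters were not found in the other 7 windows.

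**Figure D1:**
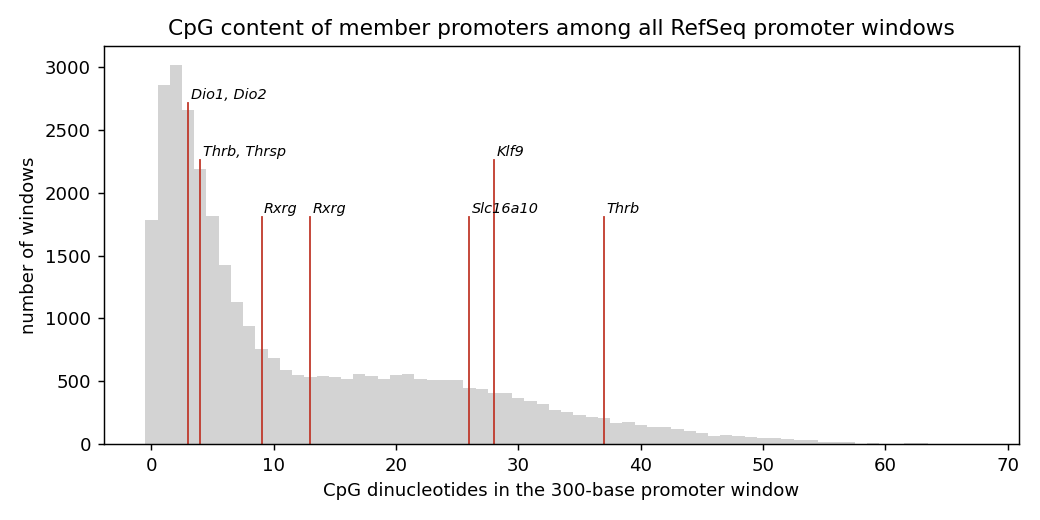
Number of CpG dinucleotides (x axis) in 300-base promoter windows; grey bars count all 32851 RefSeq windows and red lines mark the 9 member windows. The lines for Slc16a10 (26), Klf9 (28) and the first Thrb window (37) stand in the CpG-rich part, and those of Dio1 and Dio2 (3) and Thrsp (4) near the CpG-poor peak.

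In DNMTs-Tg hearts 2 of the 23 member probe sets changed (8.70%, limma with Benjamini-Hochberg adjustment over all 45037 probe sets, threshold 0.05), 1 of Slc16a10 and 1 of Thra, and both fell. Of all probe sets 2.11% changed in either direction, 1.31% fell and 0.799% rose. In whole tissue, fewer cells of a type and less RNA per cell cannot be told apart. The median log2 difference was -0.24 over the members and -0.02 over all probe sets. Of the 23, 18 lay below 0, against 24546 of all 45037. Those 18 include 7 probe sets of Klf9 and 3 each of Thra and Thrsp, and probe sets of 1 gene are not independent. The groups did not overlap in 7 members (30.4%), against 26.5% of all probe sets. In 6 of these DNMTs-Tg was lower, against 14.9% of all probe sets lower without overlap, and in 1 it was higher, against 11.7%. Of the members 7 had an unadjusted p under 0.05 (30.4%), against 19.2% of all probe sets. The share without overlap lies near that of the array as a whole. With only the brightest kept probe set of each gene, 0 of the 6 members passed (3 at unadjusted p under 0.05), against 5.39% of all genes so tested. Of the 23, 17 lay above the 40th percentile of their array on at least 3 of the 6 arrays. The 6 that did not were those of Thrb and Dio1, 2 of Dio2, 1 of Slc16a10 and 1 of Klf9. The signals give no detection call, so whether those dim probe sets were above background is unknown.

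**Figure D2:**
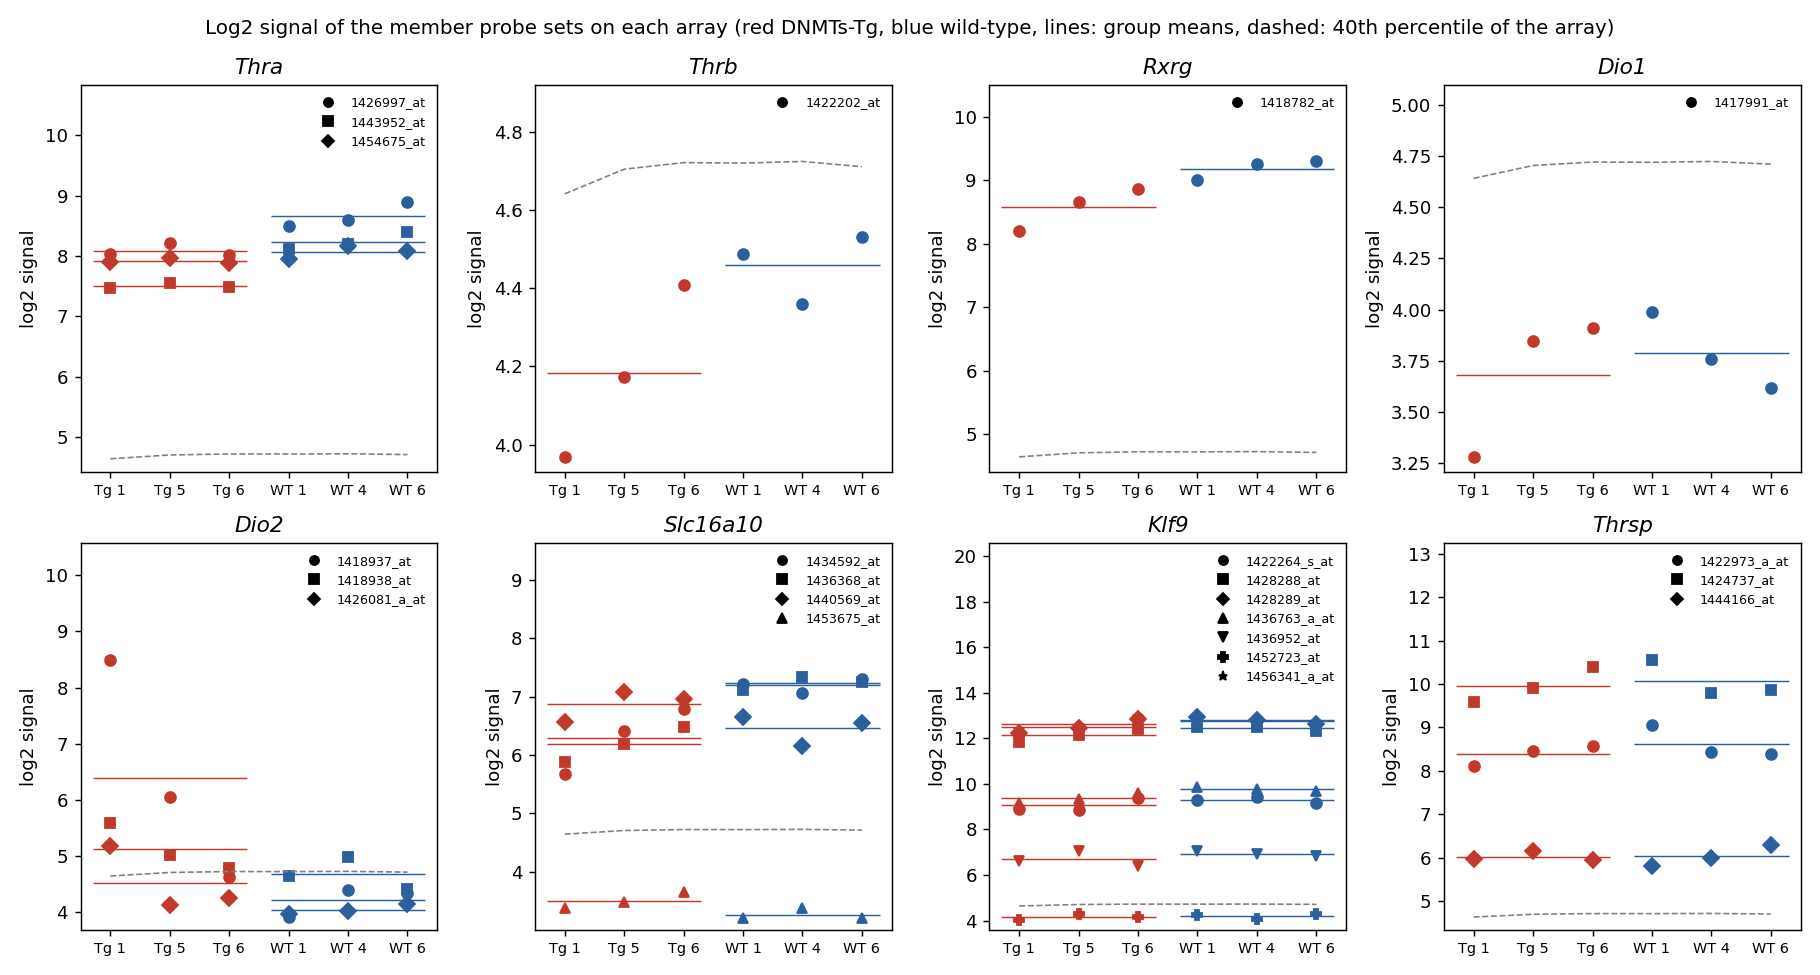
Log2 signal (y axis, a separate scale for each gene) of every member probe set on each array (x axis), DNMTs-Tg in red and wild-type in blue, with lines at the group means and a dashed line at the 40th percentile of the array. Thra 1443952_at and Slc16a10 1436368_at show separate groups, and Dio2 1418937_at reaches 8.48 on the array of DNMTs-Tg replicate 1 only.

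Thra encodes TR alpha, the predominant thyroid hormone receptor of the heart, and lies at chr11:98740776-98769006 (GRCm38.p6). Probe set 1443952_at gave log2 signals of 7.47, 7.55 and 7.48 in DNMTs-Tg replicates 1, 5 and 6 and of 8.12, 8.20 and 8.40 in wild-type replicates 1, 4 and 6. All 3 DNMTs-Tg arrays lay below all wild-type arrays, and they lay closer together than the wild-type arrays did. The fall was 1.67-fold (log2 difference -0.74 ± 0.12, SE, n = 3 per group, limma adjusted p = 0.0269). Probe set 1426997_at showed the same order, with 8.03, 8.21 and 8.02 against 8.50, 8.60 and 8.89. Its difference of -0.57 ± 0.14 did not pass the threshold (adjusted p = 0.0854). The third, 1454675_at, overlapped between the groups, with 7.90, 7.97 and 7.89 against 7.95, 8.16 and 8.08 (-0.14 ± 0.12, adjusted p = 0.542, 95% interval -0.41 to 0.13). Thra makes several transcript forms, among them one for a receptor that binds T3 and one for a variant that does not, and which form each probe set reads is not known here. Averaged over its 3 probe sets, Thra was lower by a log2 difference of -0.49, which missed the threshold (adjusted p = 0.0603 over 18193 genes).

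The Thra call was not kept in every fit with 1 array left out. The difference of 1443952_at ranged from -0.80 to -0.66 with 1 array left out. Its adjusted p was 0.0267 without DNMTs-Tg replicate 1, 0.0312 without DNMTs-Tg replicate 6, 0.102 without DNMTs-Tg replicate 5, 0.106 without wild-type replicate 1, 0.1175 without wild-type replicate 4 and 0.123 without wild-type replicate 6. The change thus kept its size on the arrays with Y-linked RNA (-0.76) and without the array that stood apart (-0.72), while the call was lost in 4 of the 6 fits. In those 4 fits only 167 to 264 of all probe sets passed, against 952 with all 6 arrays. Without DNMTs-Tg replicate 1 it was 1412, and without DNMTs-Tg replicate 6 it was 2429.

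The 3′ end of Thra overlaps the circadian repressor gene Nr1d1, which encodes REV-ERB alpha and is transcribed from the opposite strand. The annotated genes share 1075 bases at chr11:98767932-98769006. Nr1d1 also fell, from 7.91, 7.83 and 7.98 in wild-type replicates 1, 4 and 6 to 7.34, 7.27 and 7.25 in DNMTs-Tg replicates 1, 5 and 6 (-0.62 ± 0.11, adjusted p = 0.0369). As with Thra 1443952_at, the groups were separate and the DNMTs-Tg arrays lay close together. The call was lost in the same 4 fits with an array left out, the adjusted p ranging from 0.0274 to 0.168. Those are the fits in which calls fell across the array, and Slc16a10 1436368_at lost its call in them too. Whether the probes of either gene also read RNA of the other was not tested. Among 16 clock genes, Nr1d1 included, 1 of 42 probe sets rose (Npas2 1421037_at, a partner of BMAL1, by 1.35, adjusted p = 0.0177) and 1 fell, that of Nr1d1, with a median difference of 0.01. The Npas2 call was lost without DNMTs-Tg replicate 5 (adjusted p = 0.0822) and without any 1 of the wild-type arrays, with the same direction in all 6 fits.

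Thrb encodes TR beta, which has a larger role in liver and in the pituitary than in heart muscle, and lies at chr14:17659225-18040097. Its probe set 1422202_at lay below the 40th percentile on all arrays, at 3.97, 4.17 and 4.41 in DNMTs-Tg and 4.49, 4.36 and 4.53 in wild-type hearts. The groups overlapped (-0.28 ± 0.14, adjusted p = 0.320, 95% interval -0.59 to 0.04). Rxrg, at chr1:167598362-167639623, encodes the retinoid X receptor found mainly in muscle and brain. Its probe set 1418782_at read 8.21, 8.67 and 8.87 (DNMTs-Tg replicates 1, 5 and 6) and 9.01, 9.26 and 9.30 (wild-type replicates 1, 4 and 6). The groups did not overlap, and DNMTs-Tg replicate 1 was lowest. The difference of -0.61 ± 0.18 did not pass (adjusted p = 0.132), and without DNMTs-Tg replicate 1 it was -0.42. All 5 receptor probe sets lay below 0, with a median of -0.57. The other retinoid X receptor genes had 4 probe sets, at -0.24, -0.15 and 0.19 for Rxra and -0.11 for Rxrb, none of which passed (lowest adjusted p = 0.402).

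Slc16a10, at chr10:40033532-40142270, encodes MCT10, which carries T3, T4 and aromatic amino acids. Probe set 1436368_at gave 5.89, 6.18 and 6.48 in DNMTs-Tg replicates 1, 5 and 6 and 7.12, 7.34 and 7.25 in wild-type replicates 1, 4 and 6. The highest DNMTs-Tg array lay 0.64 below the lowest wild-type array. This was a 2.07-fold fall (log2 difference -1.05 ± 0.17, adjusted p = 0.0242). Probe set 1434592_at had the same order, with 5.68, 6.42 and 6.80 against 7.22, 7.06 and 7.30, and did not pass (-0.90 ± 0.26, adjusted p = 0.122). The spread of 1.12 between its DNMTs-Tg arrays was more than that of 0.25 between its wild-type arrays.

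The other Slc16a10 probe sets did not lie lower. Probe set 1440569_at gave 6.57, 7.08 and 6.95 in DNMTs-Tg and 6.65, 6.16 and 6.56 in wild-type hearts (0.41 ± 0.19, adjusted p = 0.278, 95% interval -0.02 to 0.84). The dim 1453675_at differed by 0.23 (adjusted p = 0.290). The probe sets of Slc16a10 therefore disagree in sign, and with the mean over all 4 the difference was -0.32 (adjusted p = 0.278). Which parts of the transcript they read is not known here. With 1 array left out, 1436368_at differed by -1.20 to -0.90. Its adjusted p was 0.0180 without DNMTs-Tg replicate 1 and 0.00921 without DNMTs-Tg replicate 6. The call was lost without DNMTs-Tg replicate 5 (adjusted p = 0.105) and without wild-type replicate 1 (0.0978), 4 (0.119) or 6 (0.106). Without DNMTs-Tg replicate 6, 1434592_at passed as well (-1.15, adjusted p = 0.0348).

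Dio1 and Dio2 encode the deiodinases that make T3 from T4, Dio1 chiefly in liver and kidney and Dio2 for local supply in brain, pituitary, brown fat and muscle. Dio1 (chr4:107291465-107307168, probe set 1417991_at) was dim on all arrays, at 3.28, 3.85 and 3.91 in DNMTs-Tg and 3.99, 3.76 and 3.62 in wild-type hearts, and the groups overlapped (-0.11 ± 0.18, adjusted p = 0.785). Dio2 (chr12:90724552-90739038) varied more between single arrays than any other member. Its probe set 1418937_at gave 8.48, 6.05 and 4.63 in DNMTs-Tg replicates 1, 5 and 6 and 3.91, 4.40 and 4.35 in wild-type replicates 1, 4 and 6. All 3 wild-type signals and that of DNMTs-Tg replicate 6 lay below the 40th percentile of their array (4.64 to 4.72). Replicates 1 and 5 lay above it. The difference of 2.17 ± 0.80 did not pass (adjusted p = 0.200), since the DNMTs-Tg arrays spanned 3.85. The 40th percentile of the wild-type arrays was taken as a floor in the absence of detection calls. Against it the DNMTs-Tg mean was 3.18-fold higher, 1.54-fold without replicate 1 and at least 5.85-fold without replicate 6. Replicate 6 by itself lay under that floor (0.94-fold), so the values that include it are not lower bounds. The fit without replicate 6 passed (adjusted p = 0.0378).

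The other Dio2 probe sets had the array of DNMTs-Tg replicate 1 highest too. Probe set 1418938_at gave 5.59, 5.01 and 4.78 against 4.64, 4.98 and 4.40 (0.45 ± 0.23, adjusted p = 0.329). It lay above the 40th percentile on all 3 DNMTs-Tg arrays and on 1 wild-type array, and so met the filter through the group in which it was higher. Probe set 1426081_a_at gave 5.18, 4.12 and 4.25 against 3.97, 4.01 and 4.13 (0.47 ± 0.26, adjusted p = 0.353). On that same array fibroblast and macrophage markers stood at 1.36 and 1.52 above the wild-type mean, as given above, and their part in the Dio2 signal was not tested. The adipocyte list lay at -0.28 on that array. Of its 10 measured genes Ucp1, Lep and Cidec were dim on all 6 arrays, while Cidea, which is abundant in brown fat, was highest on that same array (10.45, with 9.82 and 9.23 for the other DNMTs-Tg hearts and a wild-type range of 9.28 to 9.72). Elovl3 (4.92), Retn (5.31) and Adipoq (2.96) were instead lowest on it. The brightest probe sets of Plin4, Lpl and Fabp4 lay within the wild-type range there. The skeletal muscle list lay at -0.06 on that array and at -0.07 to 0.10 on the others. Of its 11 genes Myh1, Myh4, Pvalb and Tnnt3 were dim on all arrays, while Myoz1 1460202_at was highest on that array, at 6.54, with 5.78 and 5.86 in the other DNMTs-Tg hearts and 4.96 to 5.47 in wild-type hearts (0.78 ± 0.23, adjusted p = 0.131). The part of these cells in the Dio2 signal was not tested either.

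Klf9 (chr19:23141226-23168129) was covered by 7 probe sets, and all 7 differences lay below 0, from -0.40 to -0.04, with none past the threshold. The 3 brightest, 1456341_a_at, 1428289_at and 1428288_at, lay at 11.83 to 12.96 in DNMTs-Tg and 12.34 to 12.93 in wild-type hearts. For 1428288_at the signals were 11.83, 12.16 and 12.40 in DNMTs-Tg replicates 1, 5 and 6 against 12.51, 12.51 and 12.34 in wild-type replicates 1, 4 and 6 (-0.32 ± 0.15, adjusted p = 0.278). DNMTs-Tg replicate 1 was the lowest array, and replicate 6 lay within the wild-type range. The groups were separate only for 1436763_a_at, with 9.16, 9.34 and 9.61 against 9.85, 9.79 and 9.67, a gap of 0.06 between the nearest arrays (-0.40 ± 0.14, adjusted p = 0.179, 95% interval -0.72 to -0.08). Probe set 1422264_s_at differed by -0.24, 1428289_at by -0.27, 1436952_at by -0.25, 1456341_a_at by -0.14 and the dim 1452723_at by -0.04. The suffix of 1422264_s_at marks probes shared with other transcripts.

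Klf9 is also a known target of glucocorticoids, and list values of that pathway were taken beside it. Of 16 glucocorticoid target genes 0 of 36 probe sets passed (limma, 7 at unadjusted p under 0.05), with a median difference of 0.10. Their mean lay 0.97 above wild-type in DNMTs-Tg replicate 1 and 0.17 and 0.20 above it on the other DNMTs-Tg arrays. The lowest p values were those of the cell cycle inhibitor gene Cdkn1a (2.59 ± 0.57, adjusted p = 0.0640) and the metallothionein gene Mt1 (0.74 ± 0.18, adjusted p = 0.0797). Of 15 other KLF family genes 0 of 39 probe sets passed (5 at unadjusted p under 0.05), with a median of -0.00021 and 19 above 0. Klf12 came closest (-0.65, adjusted p = 0.0864), and Klf10 differed by 1.47 (adjusted p = 0.101).

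Thrsp (chr7:97412933-97417550) showed no separation between the groups. Probe set 1424737_at gave 9.58, 9.90 and 10.38 in DNMTs-Tg replicates 1, 5 and 6 and 10.54, 9.79 and 9.87 in wild-type replicates 1, 4 and 6. The highest array was wild-type replicate 1, and each group spanned 0.75 or more (-0.11 ± 0.25, adjusted p = 0.843, 95% interval -0.69 to 0.47). Probe set 1422973_a_at had the same array highest, with 8.11, 8.46 and 8.57 against 9.05, 8.44 and 8.40 (-0.25 ± 0.21, adjusted p = 0.546). The third, 1444166_at, differed by -0.0035 (adjusted p = 0.994). The adipocyte hormone gene Adipoq was also highest in wild-type replicate 1, at 5.60 against 4.00 and 4.99 in wild-type replicates 4 and 6 and 2.96 to 3.54 in DNMTs-Tg hearts (-1.57 ± 0.36, adjusted p = 0.0722). Other adipocyte markers did not share this pattern: Plin4 differed by 0.44 (adjusted p = 0.298), Cidea by 0.30, and the brightest Fabp4 probe set by 0.10, and 7 of the 14 probe sets lay above 0. The list as a whole lay at 0.09 on the array of wild-type replicate 1, at -0.09 and -0.0047 on those of replicates 4 and 6 and at -0.28 to -0.02 on the DNMTs-Tg arrays. Its part in the Thrsp signal was not tested. Among the 15 thyroid hormone targets outside the heart, most of them genes of fat and glucose metabolism, 0 of 36 probe sets passed (limma, 10 at unadjusted p under 0.05), with a median of -0.04. The closest were Scd1, a fatty acid desaturase, by a probe set that was dim on all arrays (1415965_at, 0.62, adjusted p = 0.0978; its brighter one, 1415964_at, differed by 0.08, adjusted p = 0.908), and Acaca, acetyl-CoA carboxylase (0.63, adjusted p = 0.0980).

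Markers of cell types were tested in the same way (limma, adjusted over all probe sets). Of the macrophage probe sets 1 of 16 rose, 1421188_at, which is 1 of the 4 probe sets of the chemokine receptor gene Ccr2 (1.27 ± 0.15, adjusted p = 0.00752), a call lost without wild-type replicate 1 (adjusted p = 0.0555). Of the endothelial ones 1 of 17 rose (2 at unadjusted p under 0.05), that of Vwf, von Willebrand factor (1.39 ± 0.21, adjusted p = 0.0196). That call was lost without DNMTs-Tg replicate 5 (0.0745) and wild-type replicates 1 (0.0605) and 4 (0.0691). None passed among 18 fibroblast probe sets (6 at unadjusted p under 0.05), where Postn differed by 1.84 and the collagen gene Col1a2 by 1.01. None passed among 14 smooth muscle probe sets (3 at unadjusted p under 0.05), where Myh11 differed by -0.49 and Smtn by -0.61, or among 18 cardiomyocyte probe sets (3), where Mybpc3 differed by 0.34 and Ryr2 by -0.61. None passed among 17 skeletal muscle (3) or 14 adipocyte probe sets (1); of the former Tnni2 1416889_at differed by -0.54. Among 5 erythrocyte probe sets (0 at unadjusted p under 0.05) Slc4a1 differed by 0.49 and Hba-a1 by 0.18, and among 10 of thyroid follicle genes (1) Slc26a4 differed by 0.61 and the thyroglobulin gene Tg by -0.29. Their part in the differences of the members was not tested.

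**Figure D3:**
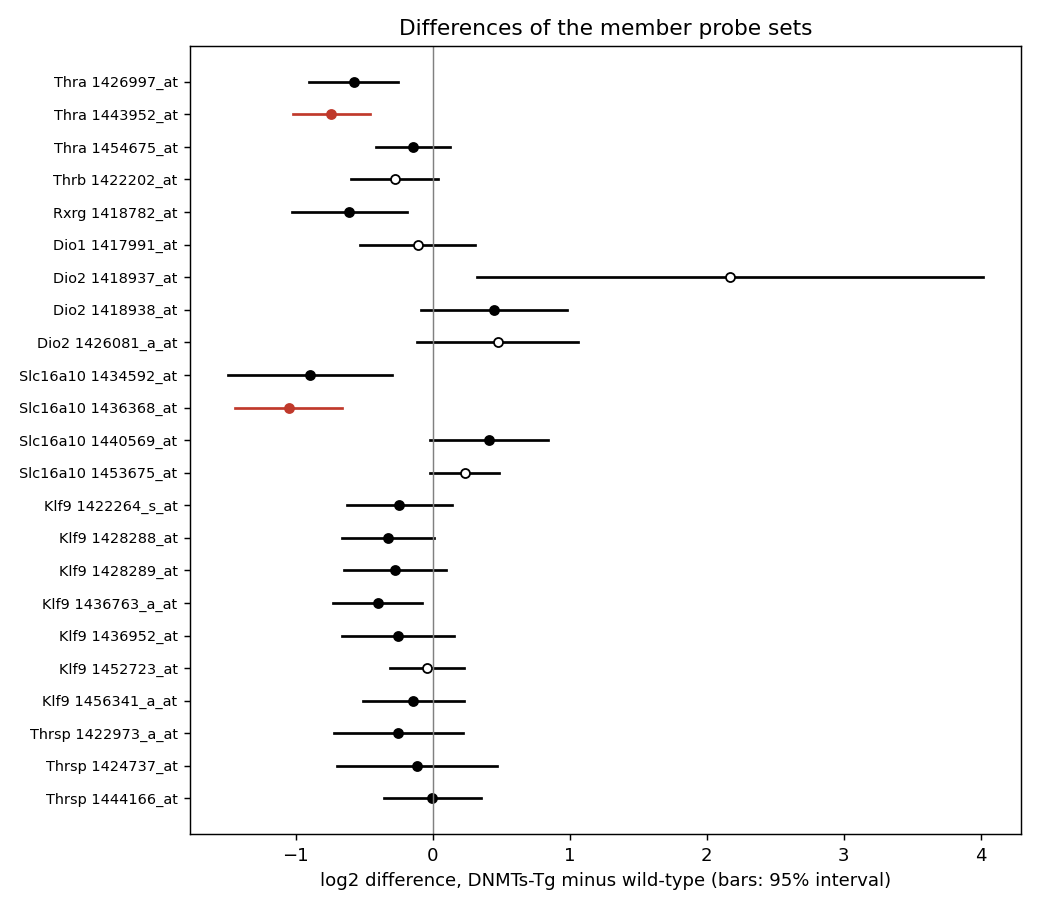
Log2 difference of each member probe set, DNMTs-Tg minus wild-type (x axis), with its 95% interval from the limma fit; red marks adjusted p under 0.05 and open circles mark probe sets that lay above the 40th percentile on fewer than 3 arrays. Thra 1443952_at (-0.74) and Slc16a10 1436368_at (-1.05) are the red entries, and the interval of Dio2 1418937_at runs from 0.32 to 4.02.

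The rest of the pathway was read from lists of genes for uptake and activation, for receptor partners and for targets in the heart. Together with the lists of clock, glucocorticoid, KLF and non-heart target genes given above, 10 of 258 probe sets passed (3.88%, against 2.11% of all probe sets), 4 higher and 6 lower. After the filter at the 40th percentile 9 of 206 passed (4.37%), which lies near the 4.13% of all probe sets so filtered. At the 60th percentile the shares were 4.88% and 6.295%. Of the other genes of transport, deiodination and binding, 10 of 13 were on the array with a single symbol, and 2 of their 16 probe sets rose. Slc7a5, which encodes the light chain of the amino acid carrier LAT1 that also carries thyroid hormone, rose from 6.39, 6.39 and 6.40 in wild-type replicates 1, 4 and 6 to 7.72, 7.15 and 7.36 in DNMTs-Tg replicates 1, 5 and 6 (1.02 ± 0.16, adjusted p = 0.0230). The groups were far apart beside the small spread of the wild-type arrays. Slc7a5 thus rose where Slc16a10, by 1 of its 4 probe sets, fell. Its partner Slc3a2, the heavy chain of the same carrier, differed by 0.18 (adjusted p = 0.715). Secisbp2, which is needed to make the selenium-containing deiodinases, rose by 0.81 ± 0.16 by 1 of its 2 probe sets, 1428496_at (adjusted p = 0.0488). The Slc7a5 call was lost without any 1 of the wild-type arrays (adjusted p up to 0.116). The Secisbp2 call was kept only without DNMTs-Tg replicate 6, with adjusted p of 0.0141 to 0.181 over the 6 fits, and was lost under quantile normalization (adjusted p = 0.0575).

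Among 16 measured retinoid X receptor and coregulator genes 2 of 46 probe sets fell, both of Med1, a mediator subunit that nuclear receptors contact. Med1 1439408_a_at fell by 1.11 ± 0.18 (log2, adjusted p = 0.0238) and 1453972_x_at by 1.07 ± 0.17 (log2, adjusted p = 0.0244). The first was dim, at 3.36 to 4.06 in DNMTs-Tg and 4.70 to 4.90 in wild-type hearts. The second lay at 4.49, 4.81 and 4.88 against 5.56, 6.08 and 5.74, and the brightest Med1 probe set, 1421907_at, differed by -0.17 (adjusted p = 0.401). Probe set 1439408_a_at lost its call without DNMTs-Tg replicate 5 and without any 1 of the wild-type arrays (adjusted p up to 0.116).

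Of the heart genes known to be induced by thyroid hormone, 10 of 14 were on the array with a single symbol, and 3 of their 29 probe sets fell, all of Kcnd2, a pore subunit of the transient outward potassium current. Kcnd2 1422834_at gave 5.34, 6.53 and 7.30 in DNMTs-Tg replicates 1, 5 and 6 and 8.72, 9.17 and 8.66 in wild-type replicates 1, 4 and 6 (-2.46 ± 0.43, adjusted p = 0.0316). The groups were separate, and DNMTs-Tg replicate 1 was the lowest array, as it was for Slc16a10 1436368_at and Rxrg. The call of 1422834_at was lost without DNMTs-Tg replicate 5 (adjusted p = 0.116) and without any 1 of the wild-type arrays (up to 0.138), and its difference was -1.93 without DNMTs-Tg replicate 1. Probe sets 1422835_at (-2.28, adjusted p = 0.0382) and 1450773_at (-2.13, adjusted p = 0.0410) fell as well, and the fourth, dim on all arrays, differed by 0.04 (adjusted p = 0.877). The other genes of the list did not pass. Myh6 gave 14.13, 14.52 and 14.54 against 14.56, 14.62 and 14.56 by its brighter probe set (-0.18 ± 0.11, adjusted p = 0.418), which lay near the highest signals on the arrays (14.67 to 14.74), where differences can be compressed. The second, 1417729_at, gave 8.28, 10.39 and 10.55 against 10.22, 10.82 and 10.44 (-0.76 ± 0.54, adjusted p = 0.479), with DNMTs-Tg replicate 1 far below the other arrays. The calcium pump gene Atp2a2 had 6 probe sets at -0.14 to 0.49 (lowest adjusted p = 0.0997). The median over the 29 probe sets was -0.03.

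Of the 6 heart genes known to be repressed by the hormone, 1 of 14 probe sets rose, that of Myh7, at 14.74, 14.64 and 14.01 in DNMTs-Tg replicates 1, 5 and 6 against 11.39, 11.82 and 9.20 in wild-type replicates 1, 4 and 6 (3.66 ± 0.59, adjusted p = 0.0247). The signal of DNMTs-Tg replicate 1 was the highest of any probe set on its array and that of replicate 5 lay near the maximum of its own (14.67), so the size of the difference may be compressed. That call was lost without DNMTs-Tg replicate 5 (adjusted p = 0.112) and without wild-type replicate 1 (0.0818). Wild-type replicate 6 was the lowest array, and without it the difference was 2.86. Phospholamban (Pln), the inhibitor of the calcium pump, had 3 probe sets at -0.45, -0.25 and -0.17, which did not pass (lowest adjusted p = 0.362), and Slc8a1, Adcy5, Adcy6 and Myh7b had none past the threshold either. The median over the 14 was -0.06. Each of the heart lists thus held 1 gene past the threshold.

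**Figure D4:**
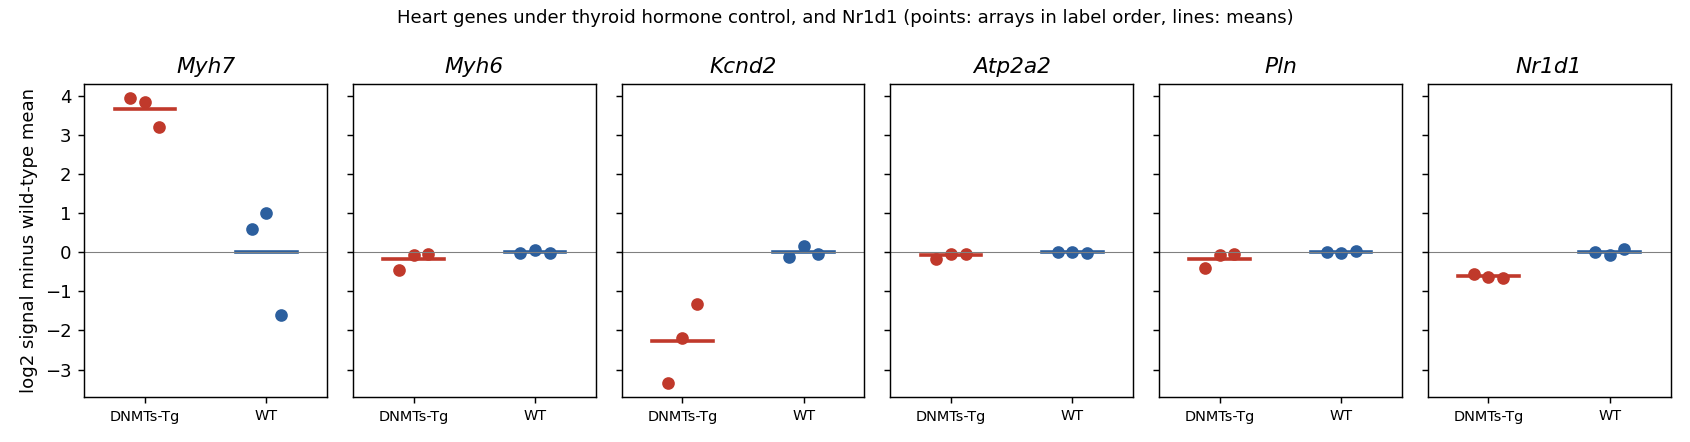
Log2 signal of each array minus the wild-type mean (y axis) for the brightest probe set each of Myh7, Myh6, Kcnd2, Atp2a2, Pln and Nr1d1, in DNMTs-Tg (red) and wild-type (blue) hearts, with lines at the group means. Myh7 lies higher and Kcnd2 lower on all DNMTs-Tg arrays, while the means of Myh6, Atp2a2 and Pln differ by -0.18, -0.08 and -0.17.

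The probe sets most like the changed members were sought among 23669 kept probe sets with 1 symbol, by the root mean square difference of their log2 values over the 6 arrays after each was centred on its own mean. Closest to Slc16a10 1436368_at were Ghr, the growth hormone receptor (0.069, difference between genotypes -1.07), Galm, galactose mutarotase (0.071, -1.06), and Slc1a1, a glutamate transporter (0.072, -1.09). Closest to Thra 1443952_at were Sdhaf3, an assembly factor of succinate dehydrogenase (0.059, -0.66), Aplp2, a relative of the amyloid precursor protein (0.068, -0.68), and Tle5, a member of the Groucho family (0.069, -0.75). Likeness was measured on the same arrays that gave the difference, so these genes share the genotype contrast by choice.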

How the data were processed

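The deposited files hold a single number for each probe set on each of the 6 arrays, read here as log2 signals because they run from 2.06 to 14.7. Array medians of 5.28 to 5.33 show a common scale, and how the authors corrected background and normalized is not stated in the sources used. Old gene symbols were replaced by current ones (GRCm38.p6) by gene identifier. After 64 control probe sets were left out, every probe set was tested without a filter, DNMTs-Tg against wild-type, by limma 3.58.1 under R 4.3.3 (2-sided moderated test from eBayes, prior variance following mean signal), with adjusted p-values (Benjamini-Hochberg over 45037 probe sets, threshold 0.05). Alternatives were other normalizations, filters, units tested, variance models, weights, the label number as a block and each array left out.

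Named were all member probe sets, the genes past the threshold in each list (otherwise the 2 with the smallest p), Myh6, Myh7, Atp2a2, Pln, Dnmt3a and Dnmt3l, and the 3 genes most like each changed member. Other genes named beside them were chosen after their values were seen. They were Eif2s3y, Xist, Slc3a2, Rxra, Rxrb, Nppa, Cidea, Fabp4, the dim markers and the further markers given for the array of DNMTs-Tg replicate 1. Slc8a1, Adcy5, Adcy6 and Myh7b were named as well and complete the list of heart genes repressed by the hormone. The members and lists were chosen with earlier results of these data known. The labels do not tell how the mice were related, so p-values measure the spread between these mice.

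On simulated data with 45037 probe sets and 3 arrays per group, 71% of 100 probe sets changed 2-fold and 93% of 100 changed 4-fold were recovered, with 0 wrong signs and 3 unchanged ones called. The simulation gave both groups the spread of the wild-type arrays and placed changes only in probe sets that met the signal filter. On the first principal component the real DNMTs-Tg arrays lay further apart (-72.9, -26.8 and -4.34) than the wild-type arrays (32.3 to 37.8). The recovery rates may therefore be too high for the comparison of these hearts. The number of arrays limits the precision. As a sign of RNA quality, the Gapdh control read higher at its 3′ than its 5′ end by 0.66 ± 0.12 (log2, SD, n = 3) in DNMTs-Tg and 0.43 ± 0.06 in wild-type (2-sided p = 0.1 by exact permutation, which cannot go lower here). For Actb it was 1.12 ± 0.25 and 1.15 ± 0.09 (exact p = 0.8). The relation of these values to the members was not tested.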

Additional observations from a re-analysis of the deposited data

How the results depend on the processing

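The main counts were 2 of 23 member probe sets (8.70%), 10 of 258 listed probe sets (3.88%) and 952 of all probe sets (2.11%). With 1 array left out they ranged from 0 to 4 (up to 17.4%), 0 to 15 (up to 5.81%) and 167 to 2429 (0.371% to 5.39%). The 0 members without DNMTs-Tg replicate 5 or 1 of the wild-type arrays came with 6 to 8 at an unadjusted limma p under 0.05. Array weights gave 8, 29 and 5472 (34.8%, 11.2% and 12.15%). With the label number as a replicate block, which leaves only the numbers 1 and 6 to compare, limma gave 0, 0 and 7 (7 members at unadjusted p under 0.05, 32 listed), and adjusted p was 0.403 for Thra 1443952_at and 0.339 for Slc16a10 1436368_at. Same-numbered arrays did not deviate together (correlations of deviations -0.0479 and -0.0812). Only the numbers 1 and 6 occur in both groups, so these values cannot tell whether same-numbered samples share more than a number. With the brightest kept probe set per gene 0 of 6 members passed (3 at unadjusted p under 0.05), since the called member probe sets are not the brightest of their genes. Of 96 listed genes 6 passed (6.25%), against 5.39% of all 13634 genes so tested. With probe sets averaged by gene the counts were 0 of 8 members (3 at unadjusted p under 0.05), 6 of 104 listed genes (5.77%) and 566 of 18193 genes (3.11%). Robust eBayes gave 6 listed probe sets (2.33%, against 2.28% of all probe sets). At a threshold of 0.1 there were 3, 21 and 2333, and at 0.01 there were 0, 0 and 202.

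Single member differences kept their direction and side of the threshold in 307 of 336 comparisons, and 11 reversed, all from main differences of -0.11 to -0.0035. Thrsp 1444166_at turned to 0.0052 with a common median, 0.129 with array weights, 0.023 without DNMTs-Tg replicate 1, 0.038 without DNMTs-Tg replicate 6 and 0.125 without wild-type replicate 6. Thrsp 1424737_at turned to 0.073 without DNMTs-Tg replicate 1 and 0.124 without wild-type replicate 1. Klf9 1452723_at turned to 0.045 with array weights, 0.020 without DNMTs-Tg replicate 1 and 0.0055 without wild-type replicate 6, and Dio1 to 0.090 without DNMTs-Tg replicate 1. With 1 array left out the ranges were -0.2245 to 0.090 for Dio1, -0.103 to 0.020 for Klf9 1452723_at, -0.327 to 0.124 for Thrsp 1424737_at and -0.109 to 0.125 for Thrsp 1444166_at. The cause was not tested. In 18 comparisons a call was gained (8) or lost (10).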
